A study of Mus musculus with 3 samples.

Results

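TRBJ2 is the downstream of the 2 groups of joining (J) segments at the mouse T cell receptor beta locus, and its use was examined in T cells from inflamed sciatic nerves. Productive TRB contigs whose J gene carried a TRBJ2 name were taken from the cell-associated contigs of each library. They formed 2551 of 3872 productive TRB rearrangements and used 6 genes, TRBJ2-1, TRBJ2-2, TRBJ2-3, TRBJ2-4, TRBJ2-5 and TRBJ2-7, of the 12 TRBJ genes found. A rearrangement was 1 V gene, 1 nucleotide CDR3 and 1 J gene within a library, where CDR3 is the stretch of the chain that runs from the end of V through the start of J and contacts the peptide.

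All cells were CD45+ immune cells sorted from sciatic nerves of neuropathic NOD.AireGW/+ mice, which are nonobese diabetic mice with 1 mutant copy of Aire, the regulator of self-antigen expression in the thymus, and which develop spontaneous autoimmune neuropathy. There were 3 libraries of the 1 condition, replicates 1 and 2 from 1 mouse each and replicate 3 from 2 pooled mice, with no untreated or wild-type library among the T cell receptor samples. T cell receptor transcripts were read with the 10X Genomics V(D)J 5′ assay, in which each RNA molecule carries a unique molecular identifier (UMI). The age of the mice at collection was not given in the sources used here, and the mice pooled in replicate 3 could not be separated. T cells were recognised by their receptor contigs, since no gene expression was analysed here.

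In a developing T cell, a D segment is first joined to a J segment and a V segment is then joined to the DJ unit. TRBD2 lies just upstream of TRBJ2, and TRBC2, the constant gene spliced to TRBJ2 segments, lies just downstream. Each J is preceded by a recombination signal made of a nonamer, a spacer and a heptamer, which the RAG recombinase binds and cuts, and bases are removed and added at the cut ends before they are joined.

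The segments are printed here because their first part, less any bases removed, ends the CDR3 and because the signal before each differs. Coordinates and sequence are those of the GRCm38 genome (mm10), plus strand, and all segments lie in order on chromosome 6 between TRBD2 (chr6:41542163-41542176) and TRBC2 (chr6:41546730-41548352). In the segments, capitals mark the bases that fall in the CDR3.

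TRBJ2-1, chr6:41542754-41542803: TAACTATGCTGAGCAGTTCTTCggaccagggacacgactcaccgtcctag
TRBJ2-2, chr6:41542957-41543007: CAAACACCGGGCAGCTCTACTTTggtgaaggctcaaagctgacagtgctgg
TRBJ2-3, chr6:41543223-41543271: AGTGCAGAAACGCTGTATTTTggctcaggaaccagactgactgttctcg
TRBJ2-4, chr6:41543362-41543410: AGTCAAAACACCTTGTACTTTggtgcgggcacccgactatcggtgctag
TRBJ2-5, chr6:41543453-41543501: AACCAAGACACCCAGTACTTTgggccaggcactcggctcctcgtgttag
TRBJ2-7, chr6:41543810-41543856: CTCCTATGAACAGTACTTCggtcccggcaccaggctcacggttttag

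The CDR3 part was 22 bases in TRBJ2-1, 23 in TRBJ2-2, 21 in each of TRBJ2-3, TRBJ2-4 and TRBJ2-5, and 19 in TRBJ2-7, which was the shortest. In the 28 bases before each segment, capitals mark the nonamer on the left and the heptamer on the right, which are separated by 12 bases.

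TRBJ2-1, chr6:41542726-41542753: GAATTCTTGgtagcccttttcTGCTGTG
TRBJ2-2, chr6:41542929-41542956: GGTTTGTGCcagcatttccagGACTGTG
TRBJ2-3, chr6:41543195-41543222: AGTTTTTGTcctgagcctggaGGCTGTG
TRBJ2-4, chr6:41543334-41543361: AGTTTTTGTcctgtaccaagaGGCTGTG
TRBJ2-5, chr6:41543425-41543452: AGTTTTTGTgttgggttctggGGCTGTG
TRBJ2-7, chr6:41543782-41543809: GGTTTGTGTgtggggttgagcCTCTGTG

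All 6 heptamers ended in GTG. The nonamer and heptamer were the same letters in TRBJ2-3, TRBJ2-4 and TRBJ2-5, which differed in their spacers, and each of the other 3 genes had its own pair. TRBJ2-6, which the annotation lists as a pseudogene at chr6:41543598-41543645, was named in 0 TRB contigs of each library. The J names fitted the reference: of 2755 TRBJ2 contigs of replicates 2 and 3 that carried framework 4, the part of J after the CDR3, 2753 had the reference bases. Framework 4 was not given for replicate 1.

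TRBJ2 made up 872 of 1302, 1314 of 2033 and 365 of 537 TRB rearrangements in replicates 1, 2 and 3. These were 67.0%, 64.6% and 68.0%, so that TRBJ1, the upstream group, had the smaller part in every library. The TRBJ2 chains came from 1604 of 2253, 2245 of 3361 and 440 of 642 cells with a TRB. The median TRBJ2 contig had 7, 6 and 4 UMIs in replicates 1 to 3, close to the 7, 6 and 5 of TRBJ1 contigs, and replicate 3 was the shallowest. Replicates 1 and 2 shared 7 cell barcodes and replicates 2 and 3 shared 3, in no case with the same TRB.

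The 6 genes were used unequally. TRBJ2-7, the last of the row, had 272, 404 and 98 rearrangements in replicates 1, 2 and 3, or 29.6% ± 2.39 (SD, n = 3) of TRBJ2. TRBJ2-5 had 171, 253 and 70 rearrangements, or 19.3% ± 0.231 (SD, n = 3), the smallest spread among the 6. TRBJ2-1, which lies nearest to TRBD2, had 130, 249 and 67 rearrangements, or 17.4% ± 2.18 (SD, n = 3). All 3 of these genes were used more often than the other members on average.

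TRBJ2-3 had 130, 193 and 59 rearrangements, or 15.3% ± 0.796 (SD, n = 3) of TRBJ2. TRBJ2-4 had 94, 132 and 34, or 10.0% ± 0.732 (SD, n = 3), and TRBJ2-2 had 75, 83 and 37, or 8.35% ± 1.92 (SD, n = 3). TRBJ2-4 and TRBJ2-2 were the lowest pair of members in every library. TRBJ2-5 exceeded TRBJ2-4 by 9.30 ± 0.522 percentage points (SD, n = 3) and TRBJ2-3 exceeded TRBJ2-4 by 5.21 ± 1.45. In the reference genome these 3 genes have the same nonamer and heptamer. The signals of the mice themselves were not read, and a link between signal and use was not tested.

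**Figure D1:**
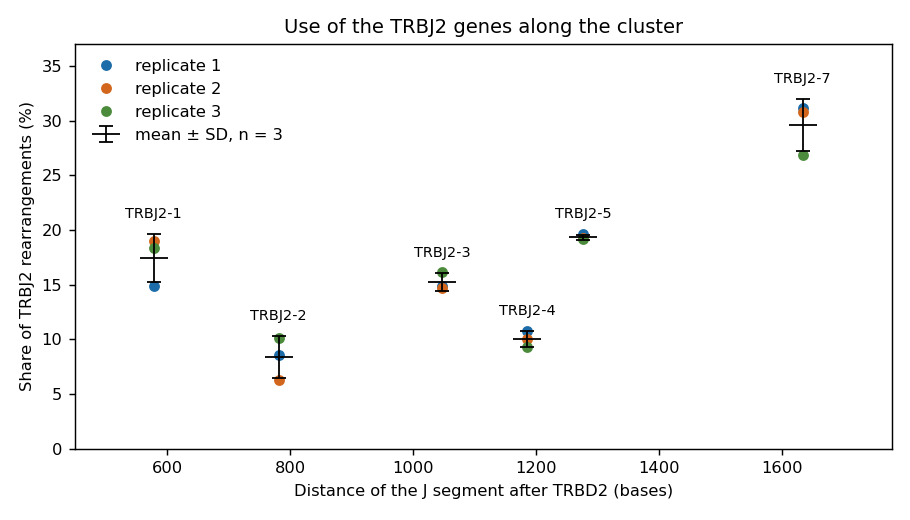
Share of each TRBJ2 gene among TRBJ2 rearrangements (y axis, %) against its distance after TRBD2 (x axis, bases). Each point is a library, and the black lines are the mean and SD of 3 libraries. TRBJ2-7, farthest from TRBD2, was highest in every library (mean 29.6%), and TRBJ2-2 and TRBJ2-4 were the lowest pair.

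In the order of the means, TRBJ2-7 stood above TRBJ2-5 by 10.2 ± 2.23 percentage points (SD, n = 3), in 3 of 3 libraries. TRBJ2-5 and TRBJ2-1 were within their spread, with a difference of 1.94 ± 2.40 points, and so were TRBJ2-4 and TRBJ2-2, with 1.70 ± 2.31. TRBJ2-1 and TRBJ2-3 differed by 2.15 ± 2.13 points, in 2 of 3 libraries. With 3 libraries an exact sign test cannot go below p = 0.25, so the order is a description.

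The order of use did not follow the order of the segments. The members begin 578, 781, 1047, 1186, 1277 and 1634 bases after TRBD2. By mean share, the first, TRBJ2-1, ranked after TRBJ2-7 and TRBJ2-5, while the second, TRBJ2-2, ranked last. With contigs of at least 3 UMIs, TRBJ2-1 had 18.6% and TRBJ2-5 had 18.3% of TRBJ2, so that their order turned. Across the 6 genes, Pearson's r of distance and mean share was 0.643, which is a description over 6 genes of 1 locus and carries no test.

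The libraries did not differ detectably in their use of single J genes. In Fisher's exact tests of each TRBJ gene between each pair of libraries, 0.0% of 36 tests were called at an adjusted p under 0.05 (Benjamini-Hochberg over all 36). Of the 18 tests of TRBJ2 genes, 0 were called and 2 had an unadjusted p under 0.05. The lowest adjusted p, 0.145 by Fisher's exact test, was for TRBJ2-2, which made up 4.08% of all TRB rearrangements in replicate 2 and 6.89% in replicate 3. Such p-values compare the rearrangements of these libraries, not mice, and treat rearrangements as independent.

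Counted by cells, the order of the genes changed from library to library. For each gene the cells of its rearrangements were summed, and a cell with more than 1 TRB was counted with each. TRBJ2-4 had 494 cells in replicate 1, against 250 in replicate 2 and 44 in replicate 3, which were 29.8%, 10.8% and 9.91% of TRBJ2 cells. It therefore ranked first by cells in replicate 1 although it had the second lowest number of rearrangements there. Without the largest TRBJ2 rearrangement of each library, its share was 9.98%, 11.3% and 10.1%, close to its share of rearrangements. The rearrangement left out was of TRBJ2-4 in replicate 1 and of TRBJ2-1 in replicates 2 and 3.

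TRBJ2-1 had 207, 542 and 85 cells in replicates 1, 2 and 3, or 12.5%, 23.5% and 19.1%, and TRBJ2-7 had 385, 705 and 113 cells, or 23.2%, 30.5% and 25.5%. TRBJ2-1 had its highest share in replicate 2, the library of its 96-cell rearrangement. TRBJ2-5 had 16.3%, 16.3% and 16.9% of TRBJ2 cells, TRBJ2-3 had 12.3%, 13.2% and 16.7%, and TRBJ2-2 had 5.85%, 5.76% and 11.9%. TRBJ2-7 was the first by cells in replicates 2 and 3, and TRBJ2-2 was the last in replicates 1 and 2.

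**Figure D2:**
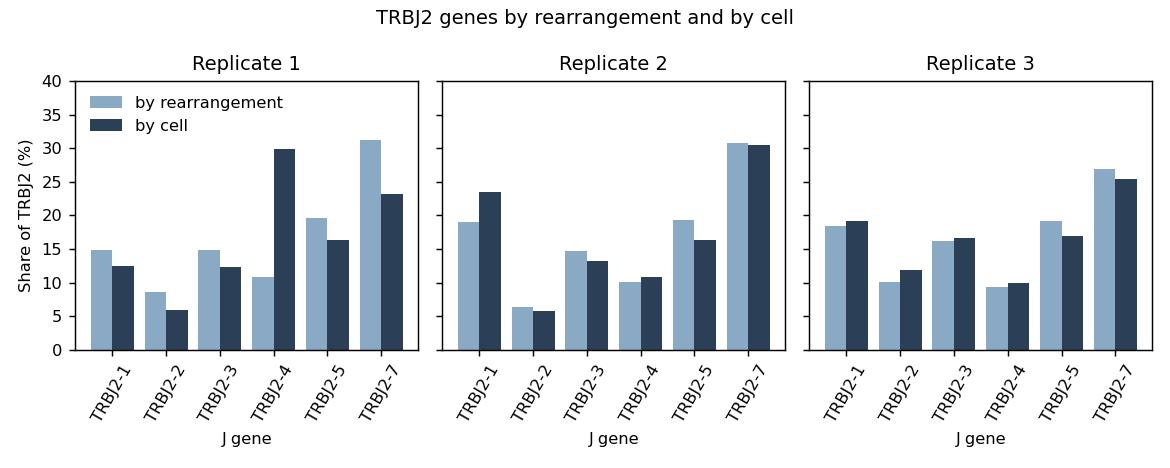
Share of each TRBJ2 gene (y axis, %) by rearrangement and by cell in the 3 libraries, with the genes in their order along the chromosome. The bars for TRBJ2-4 in replicate 1 stand apart, at 10.8% of rearrangements and 29.8% of cells.

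The largest rearrangement of each gene is printed because it shows how the germline segment was used in an expanded clone. Capitals mark the bases of the CDR3 that match the germline J without a break from its end. A matching added base counts as J.

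TRBJ2-1, TRBV5, 96 cells of replicate 2: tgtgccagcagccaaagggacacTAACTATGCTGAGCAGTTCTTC
TRBJ2-2, TRBV12-2+TRBV13-2, 14 cells of replicate 2: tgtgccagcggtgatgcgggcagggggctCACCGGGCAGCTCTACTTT
TRBJ2-3, TRBV19, 13 cells of replicate 2: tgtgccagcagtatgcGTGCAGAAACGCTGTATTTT
TRBJ2-4, TRBV19, 365 cells of replicate 1: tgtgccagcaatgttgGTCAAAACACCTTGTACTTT
TRBJ2-5, TRBV3, 23 cells of replicate 1: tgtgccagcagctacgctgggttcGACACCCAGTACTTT
TRBJ2-7, TRBV12-2, 46 cells of replicate 2: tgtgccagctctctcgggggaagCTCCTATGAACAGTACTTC

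The TRBV19 to TRBJ2-4 rearrangement held 73.9% of the TRBJ2-4 cells of replicate 1. The TRBJ2-1 and TRBJ2-7 rearrangements kept their whole germline part (22 and 19 bases), the TRBJ2-3 and TRBJ2-4 ones had lost 1 base each, and those of TRBJ2-2 and TRBJ2-5 had lost 4 and 6. None of the 6 was found in another library. Of the 365 cells with TRBV19 to TRBJ2-4, 94 (25.8%) also had a nonproductive contig named TRBV12-1 and TRBJ2-4, with a median of 3 UMIs. That contig was found in 13 of the 1888 other cells with a TRB in the library.

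Expanded rearrangements, meaning those found in 2 or more cells, were 175, 275 and 49 of the TRBJ2 rearrangements of replicates 1, 2 and 3. These were 20.1%, 20.9% and 13.4%, beside 20.4%, 22.1% and 12.5% of all TRB rearrangements. For TRBJ2 as a whole against TRBJ1, the odds ratio of expansion was 0.896 (95% interval 0.758 to 1.06), with p = 0.19 in an exact conditional test, two-sided, with the libraries as strata.

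TRBJ2-7 was found less often among expanded rearrangements than the other J genes. In replicates 1, 2 and 3, 45 of 272, 64 of 404 and 13 of 98 TRBJ2-7 rearrangements were expanded, or 16.5%, 15.8% and 13.3%. These 122 compare with 157 expected from each library's share of expanded rearrangements. The odds ratio against all other TRB rearrangements was 0.684 (95% interval 0.548 to 0.848), with p = 0.000367 and adjusted p = 0.0044 over the 12 TRBJ genes in the same exact test. TRBJ2-7 was the gene called, and 8.33% of the 12 genes were called.

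The deficit was not seen in every library. Observed over expected was 0.810, 0.716 and 1.06 in replicates 1 to 3, and in the last of these 13 TRBJ2-7 rearrangements were expanded. Without replicate 2 the odds ratio was 0.791 (adjusted p = 0.776, exact test). With expansion set at 3 or more cells it was 0.685 with an adjusted p of 0.154 in the exact test. Stratified by V gene as well as library it was 0.691 (adjusted p = 0.00759, exact test), and stratified by CDR3 length and library 0.696 (adjusted p = 0.015, exact test). Both of these strata were chosen after the data had been seen.

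The other 5 genes were not called. TRBJ2-3 had 92 expanded rearrangements against 76.6 expected, with an odds ratio of 1.30 (95% interval 1.00 to 1.68) and an adjusted p of 0.256 in the exact test. TRBJ2-4 had 60 against 52.7 and was above expectation in 3 of 3 libraries, and TRBJ2-5 had 89 against 99.7 and was below it in 3 of 3. Their intervals, 0.871 to 1.63 and 0.659 to 1.09, included 1. TRBJ2-1, with 96 against 90.0 and an odds ratio of 1.10, and TRBJ2-2, with 40 against 38.3 and 1.06, were nearest to expectation.

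**Figure D3:**
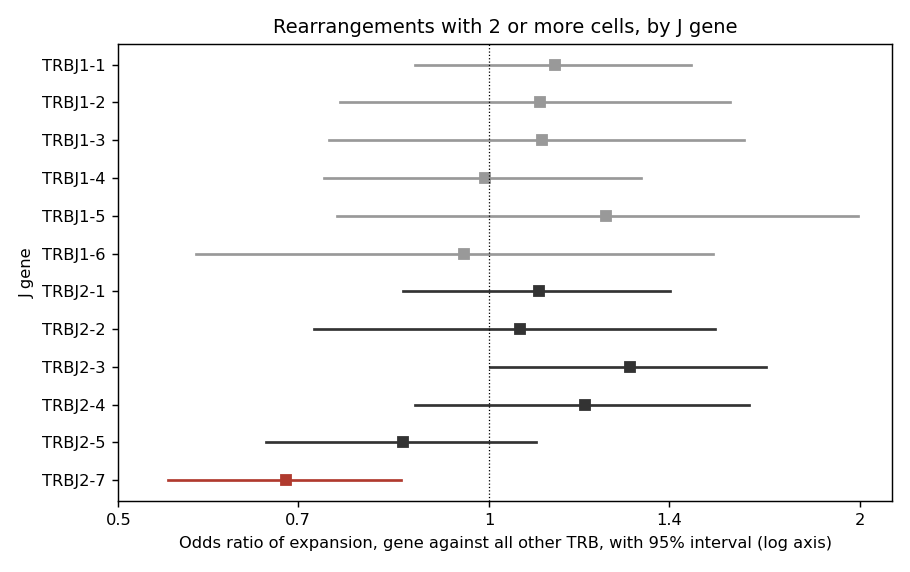
Odds ratio of expansion to 2 or more cells for each TRBJ gene against all other TRB rearrangements, stratified by library (x axis, log scale). Squares are estimates, lines are 95% exact intervals, TRBJ1 genes are grey and the gene with an adjusted p under 0.05 is red. The interval of TRBJ2-7, 0.548 to 0.848, lies below 1, and the lower end for TRBJ2-3 is 1.00.

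Counted by beta chain, rearrangements of more than 20 cells were 8 of 2551 in TRBJ2 and 4 of 1321 in TRBJ1. TRBJ2-7 had 4 of its 774, all in replicate 2. TRBJ2-4 had 2 of 260, TRBJ2-1 had 1 of 446, TRBJ2-5 had 1 of 494, and TRBJ2-2 and TRBJ2-3 had 0. No TRBJ2 rearrangement of replicate 3 exceeded 7 cells.

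TRBJ2-7, the gene with the shortest germline part, had the shortest CDR3. Its mean length was 13.17, 13.27 and 13.14 residues in replicates 1, 2 and 3, and its median was 13 in each library. TRBJ2-2, with the longest germline part, had means of 14.65, 14.63 and 14.95, and TRBJ2-3 had 14.60, 14.70 and 14.78, each with a median of 15. TRBJ2-1 had 14.38, 14.38 and 14.25, TRBJ2-4 had 14.19, 13.79 and 14.38, and TRBJ2-5 had 14.12, 14.02 and 13.83, each with a median of 14. The library means of TRBJ2-7 did not overlap with those of any other member.

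TRBJ2-7 chains were shorter than the mean of the other 5 genes by 1.22, 1.04 and 1.30 residues, a mean difference of -1.18 ± 0.134 (SD, n = 3). The J end was also removed to unequal extents. TRBJ2-7 had lost a mean of 3.94, 3.68 and 3.89 of its 19 CDR3 bases, the most among the members. TRBJ2-3 had lost 1.53, 1.63 and 1.47 of 21, the least, and 45.4%, 40.4% and 44.1% of its rearrangements kept the whole segment. TRBJ2-7 kept its whole segment in 15.4%, 20.5% and 15.3%.

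TRBJ2-3, TRBJ2-4 and TRBJ2-5 start with 21 CDR3 bases each and, in the reference genome, have the same nonamer and heptamer. They were trimmed by 1.54 ± 0.0771, 2.36 ± 0.262 and 3.01 ± 0.112 bases (SD, n = 3). A link between signal and trimming was not tested. The part of the CDR3 that was not J (the end of V, any D and added bases) was a mean of 24.4, 24.5 and 24.3 bases in TRBJ2-7. In the other 5 genes it lay between 22.4 and 24.8 bases in every library, so that the shorter CDR3 of TRBJ2-7 lay in its J part. Among members, the J bases kept ranged from a mean of 15.2 in TRBJ2-7 to 20.7 in TRBJ2-2.

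**Figure D4:**
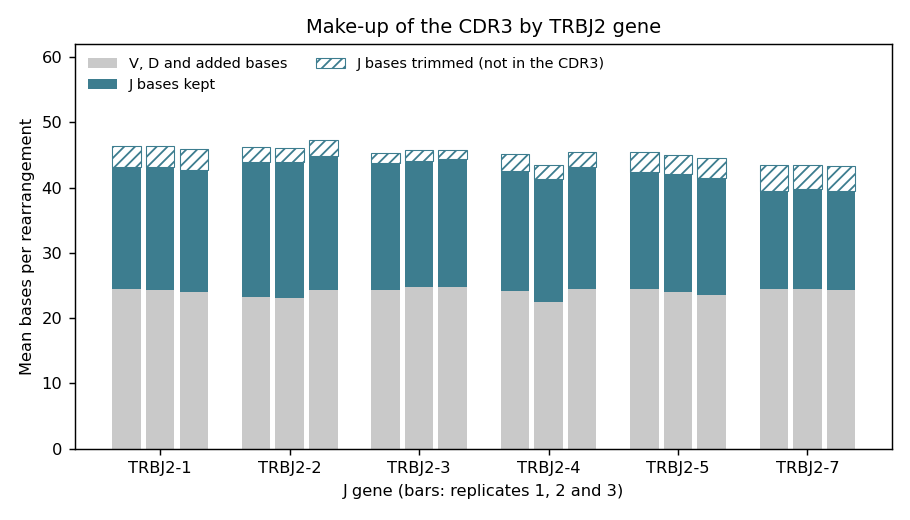
Mean number of bases per rearrangement (y axis) from V, D and added bases (grey), from J (filled) and removed from J (hatched, above the CDR3), for each TRBJ2 gene and replicates 1 to 3. TRBJ2-7 kept the fewest J bases (mean 15.2) and TRBJ2-2 the most (20.7), while the grey part stayed between 22.4 and 24.8.

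Expanded TRBJ2 rearrangements had a mean CDR3 length of 14.17, 14.10 and 14.04 residues in replicates 1, 2 and 3, and single ones had 13.94, 13.94 and 14.04. Within TRBJ2-7 these were 13.33, 13.31 and 12.92 for expanded and 13.14, 13.26 and 13.18 for single rearrangements. TRBJ2-2 had 14.92, 13.95 and 14.38 for expanded and 14.60, 14.83 and 15.10 for single ones. TRBJ2-3 had 14.71, 14.76 and 15.29 for expanded and 14.57, 14.68 and 14.71 for single ones. The sign was thus not the same in every library for TRBJ2-7 and TRBJ2-2. The means over all TRBJ2 were not adjusted for the mix of genes, and TRBJ2-7, the shortest, was less often expanded. These differences were not tested.

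V genes were joined to TRBJ2 genes mostly in proportion to the use of each. For each pair of a V and a J gene with at least 10 rearrangements each, the number was compared with that expected from the 2 genes' use in the same library, in an exact test stratified by library. Of all 252 pairs, 1.59% were called at an adjusted p under 0.05. Of the 126 pairs with a TRBJ2 gene, 1 was called and 10 had an unadjusted p under 0.05. TRBV12-2+TRBV13-2 was the leading V gene of TRBJ2-1, TRBJ2-3, TRBJ2-5 and TRBJ2-7, with 84 of 774 rearrangements of the last. It had 11.7%, 10.5%, 14.4% and 10.9% of these genes' rearrangements, beside 10.4% of all TRB rearrangements. By the names as given, TRBV1 led with TRBJ2-4, in 31 of 260, and was level with TRBV5 and TRBV16 at 21 of 195 in TRBJ2-2. TRBV13-2, a name that some CDR3 sequences carried beside TRBV12-2+TRBV13-2, was counted apart. TRBV12-2+TRBV13-2 and TRBV13-2 had 26 and 13 rearrangements with TRBJ2-4, and 19 and 8 with TRBJ2-2. The leads of TRBV1 may therefore depend on the naming.

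The pair called was TRBV5 with TRBJ2-4, which was found in 4, 5 and 2 rearrangements of replicates 1, 2 and 3 against 11.9, 12.3 and 2.28 expected. The 11 in all were 0.415 of the 26.5 expected (exact p = 0.000407, adjusted p = 0.0256 over 252 pairs). The call was lost without replicate 1 (observed over expected 0.479; exact test, adjusted p = 0.526), without replicate 2 (0.423; adjusted p = 0.286, exact test) and with contigs of at least 3 UMIs (0.431; adjusted p = 0.0793, exact test). The ratio thus stayed below 0.5 in each of these, with fewer rearrangements. TRBV5 was joined to the neighbouring TRBJ2-3 in 39 rearrangements and to TRBJ2-5 in 58.

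The next pair was TRBV12-2+TRBV13-2 with TRBJ2-5. It had 71 rearrangements against 51.2 expected, above expectation in 3 of 3 libraries, with an adjusted p of 0.103 in the exact test. With contigs of at least 3 UMIs it was called instead, with 66 against 42.1 (exact test, adjusted p = 0.0107). This pair may depend on the naming. Over all contigs, the name TRBV13-2, counted apart, had 22 rearrangements with TRBJ2-5 against 24.5 expected. With the names joined, 1 pair with a TRBJ2 gene was called, TRBV5 with TRBJ2-4 (exact test, adjusted p = 0.0336). The names were not joined for contigs of at least 3 UMIs. TRBV12-1 had 0 rearrangements with TRBJ2-3 against 5.02 expected, and TRBV19 had 82 with TRBJ2-7 against 64.5, with adjusted p of 0.166 and 0.239 in the exact test.

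**Figure D5:**
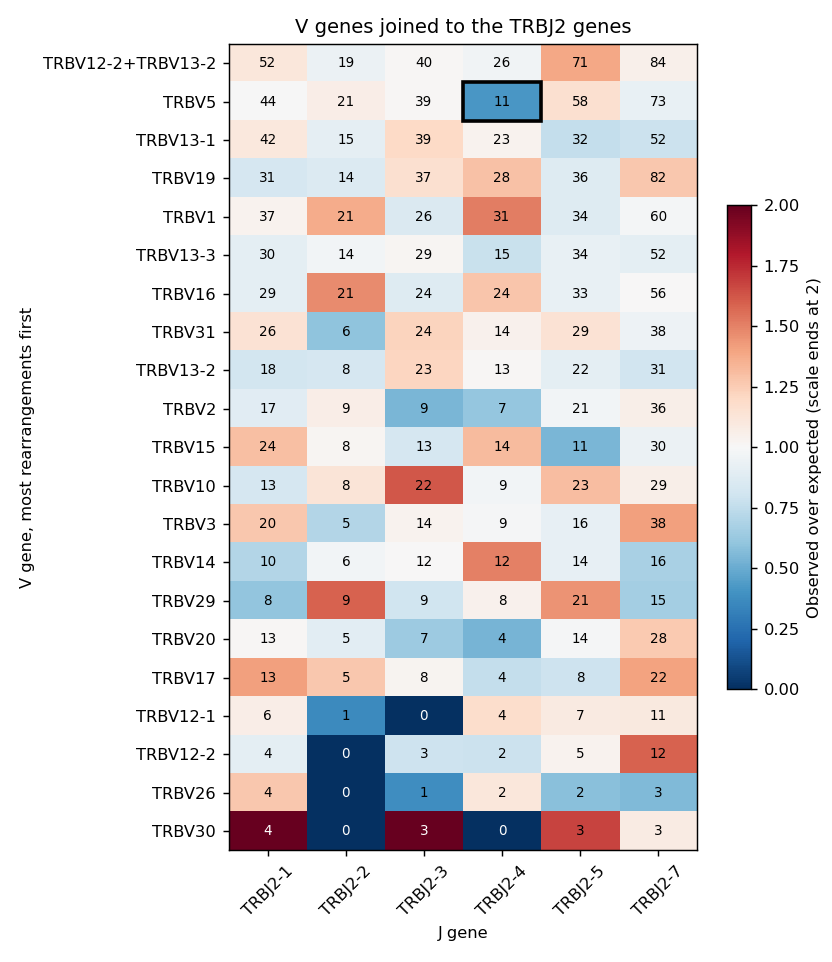
Number of rearrangements (printed in each field) joining each of 21 V genes (y axis, by total) to each TRBJ2 gene (x axis, in chromosomal order) over the 3 libraries. Colour gives observed over expected, and the framed field, TRBV5 with TRBJ2-4 (11 observed, 0.415 of expected), had an adjusted p under 0.05.

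Set against TRBJ1 as a whole, 1 of 21 V genes, or 4.76%, was called. This was TRBV12-2+TRBV13-2, with 292 TRBJ2 rearrangements against 265 expected (exact test, adjusted p = 0.0467). The same nucleotide CDR3 could carry this double name or TRBV13-2 in 1 library, which was so for 41 TRBJ2 sequences. With the names joined, after the data had been seen, 366 were observed against 350.3 expected and the call was lost (exact test, adjusted p = 0.23). Each of the 41 sequences was counted as 1 rearrangement under each name, with its cells divided, also for expansion. Without either name, again after the data had been seen, the odds ratio of expansion of TRBJ2-7 was 0.695 (exact test, adjusted p = 0.0173).

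Chains shared between libraries were few. Chains were compared here by their V and J genes and the residues of the CDR3. Of 2501 such TRBJ2 chains, 33 were found in 2 libraries, or 1.32% (95% Clopper-Pearson interval 0.910% to 1.85%), and 0 in all 3. The share for TRBJ1 was 18 of 1299, or 1.39%. TRBJ2-7 had 15 of the 33 shared chains, TRBJ2-5 had 8, TRBJ2-1 had 4, TRBJ2-4 had 3, TRBJ2-3 had 2 and TRBJ2-2 had 1. By share, TRBJ2-7 was the highest member with 1.99% of 754 chains, and its interval of 1.12% to 3.26% overlapped with that of every other member.

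The same residues were mostly reached through different bases: 27 of the 33 shared chains had more than 1 nucleotide sequence. The 4 with the most cells, chosen after their values were seen, are printed to show this, with capitals again marking the J part.

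TRBV19 to TRBJ2-7, 3 cells of replicate 1: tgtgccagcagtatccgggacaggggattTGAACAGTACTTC
TRBV19 to TRBJ2-7, 11 cells of replicate 2: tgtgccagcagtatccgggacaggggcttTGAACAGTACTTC
TRBV5 to TRBJ2-7, 1 cell of replicate 1: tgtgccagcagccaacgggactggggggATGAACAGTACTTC
TRBV5 to TRBJ2-7, 10 cells of replicate 2: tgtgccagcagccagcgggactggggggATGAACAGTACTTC
TRBV5 to TRBJ2-3, 8 cells of replicate 1: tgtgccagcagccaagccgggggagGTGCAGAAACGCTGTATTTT
TRBV5 to TRBJ2-3, 1 cell of replicate 3: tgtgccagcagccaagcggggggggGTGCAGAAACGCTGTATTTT
TRBV10 to TRBJ2-2, 2 cells of replicate 2 and 5 cells of replicate 3: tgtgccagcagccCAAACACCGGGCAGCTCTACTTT

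The TRBV10 chain with the whole TRBJ2-2 segment had the same bases in both libraries, and the other 3 differed between libraries outside the J part. Over all shared TRBJ2 chains, the part that was not J was shorter than in the chains of 1 library: 22.8 against 24.3, 20.6 against 24.2 and 21.7 against 24.3 bases in replicates 1 to 3. The shared chains were 30, 36 and 9 rearrangements in these libraries.

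A chain 1 residue away, with the same V and J gene, was found in another library for 86 of 869, 100 of 1300 and 40 of 365 TRBJ2 chains of replicates 1, 2 and 3, or 9.90%, 7.69% and 11.0%. For TRBJ1 the shares were 7.48%, 5.71% and 8.77%. TRBJ2-5 had 13.5%, 11.3% and 17.1% and TRBJ2-7 had 13.3%, 10.0% and 14.3%, the highest 2 members in each library. Both genes were also among the most used, and the number of chains to compare with was not adjusted for.

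The largest TRBJ2 rearrangement of replicate 2 and that of replicate 3 were such a pair. In replicate 3 it was a TRBV5 to TRBJ2-1 chain in 7 cells, and it differed from the 96-cell chain of replicate 2, printed above, at 3 bases and 1 residue.

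TRBV5 to TRBJ2-1, 7 cells of replicate 3: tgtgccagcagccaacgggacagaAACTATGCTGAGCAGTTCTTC

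All 49 cells of the replicate 2 chain that had an alpha chain carried TRAV3-3 with TRAJ34, and all 6 such cells of the replicate 3 chain carried TRAV3-3 with TRAJ30. The pair was noticed after the values were seen and was not tested.

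Constant genes followed the layout of the locus. Of 4412 TRBJ2 contigs, 4392 were assigned TRBC2, 0 TRBC1 and 20 no constant gene, and a count of 0 allows at most 3. A D gene was named for 578 of the 2551 TRBJ2 rearrangements, or 22.7%, from 16.9% in TRBJ2-4 to 26.4% in TRBJ2-3. Of these, 296 had TRBD2 and 282 the upstream TRBD1. TRBD2 thus had 51.2% of the named rearrangements (95% Clopper-Pearson interval 47.1% to 55.4%), which need not hold for the others. The share of TRBD2 lay between 41.7% in TRBJ2-2 and 57.4% in TRBJ2-3, and the intervals of all 6 members overlapped.

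Nonproductive junctions, which selection on the receptor cannot see, were taken from the unfiltered contigs at cell barcodes. The filtered contigs, which gave the productive chains, held none of them, so the sets compared here passed unlike filters. The nonproductive junctions used TRBJ2 in 64 of 99, 86 of 147 and 24 of 39 cases in the 3 libraries. These were 64.6%, 58.5% and 61.5%, each below the productive share of the same library. The odds ratio was 0.811 (95% interval 0.629 to 1.05; exact two-sided test with libraries as strata, p = 0.106), so that the difference was not past the threshold. Counted by distinct V and J names, an alternative chosen after the data had been seen, the direction was lost, with an odds ratio of 1.00 (exact p = 1.0).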

How the data were processed

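The authors mapped 10X V(D)J reads with Cell Ranger on mm10, version not given in the sources used here, and deposited counts of UMIs and reads for each contig with its V, D, J and C names and CDR3. Contig annotation came in 18 columns for replicate 1 and in 31 for the other libraries. Consensus and clonotype tables were not used. TRBJ2 contigs of cells numbered 1657, 2311 and 444, with 14938, 18044 and 2303 UMIs. Segments were read from GRCm38 with GENCODE M21 coordinates, and bases equal to the germline J end were counted as J.

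Exact conditional tests stratified by library, two-sided, and Fisher's exact tests were run in Python 3.11.15 with scipy 1.17.1, with Benjamini-Hochberg adjustment over all J genes or pairs tested and a minimum of 10 rearrangements per gene. The tests were tested on simulated data. Named rearrangements were the largest of each gene. The genes and lists were chosen with earlier results of these data known. Intervals are 95% and cover counting error only. Alternatives were amino acid CDR3, rearrangements merged at 1 nucleotide, at least 3 UMIs, cells with 1 TRB, weighting by cells, other limits of expansion, V gene names and each library left out.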

Additional observations from a re-analysis of the deposited data

Results flagged for a closer look

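Productive TRBJ2 contigs were also assembled on barcodes that were not called as cells, which the comparisons above do not use. There were 5116 in replicate 1 on 4851 barcodes, 970 in replicate 2 on 758 barcodes and 381 in replicate 3 on 378 barcodes. The median contig had 1, 3 and 1 UMIs. TRBJ2-4 was named in 50.6% of these contigs in replicate 1, in which it had 29.8% of TRBJ2 cells, and in 11.5% and 18.9% in replicates 2 and 3. There was no control library to set these counts against.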

How the results depend on the processing

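Of 176 values recomputed under alternatives, 148 kept their direction and side of the threshold or stayed within 1 SD, 14 lost a call, 8 turned direction and 6 moved by more. Some of these values are numbers of calls. A lost call can therefore appear both in such a number and in its own value. The number of V-J pairs called stayed the same at 3 UMIs although the pair changed. No paired analysis was possible because the 3 libraries are of a single condition. With a library left out, the share of TRBJ2 ranged from 65.8% to 67.5%, and that of TRBJ2-7 within TRBJ2 from 28.8% to 31.0%. Weighted by cells, the share of TRBJ2-7 was 26.4% and its difference in length -1.02 residues. The number of TRBJ2 genes called for expansion was 0 with over 2 cells and with over 5 cells and 0 to 1 with a library left out. TRBJ2-7 had an odds ratio of 0.847 with over 5 cells (exact test, adjusted p = 1.0). The number of V-J pairs called with a TRBJ2 gene was 0 to 1 with a library left out, being 0 without replicate 1 and without replicate 2. V genes called between the clusters numbered 0 with amino acid CDR3, 0 with the TRBV13-2 names joined, and 0 to 1 with a library left out. The odds ratio of TRBJ2 among nonproductive junctions was 1.00 with distinct V and J names (exact p = 1.0) and 0.768 to 0.857 with a library left out. Genes that were not called turned direction as follows. The odds ratio of TRBJ2-2 was 0.961 in cells with 1 TRB, 0.971 with over 2 cells, 0.666 with over 5 cells, 0.934 without replicate 3 (0.934 to 1.24 with a library left out) and 0.945 without the TRBV13-2 names. With over 5 cells, that of TRBJ2-3 was 0.722 and that of TRBJ2-4 was 0.952. The causes were not tested. The cell-associated contigs held no nonproductive ones, so the planned change of their source gave no value. Alternatives with distinct V and J names, other strata or without or with joined TRBV13-2 names were chosen after seeing the data. With 3 libraries of 1 condition, no value speaks to the neuropathy, and replicate 3 with 365 TRBJ2 rearrangements limits what can be seen in it.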
